A study of Mus musculus with 16 samples.

Results

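Liver tumours were compared with liver tissue in mice that had received the carcinogen diethylnitrosamine (DEN) and were kept on a diet rich in fructose until 9 months of age. The comparison used 3 tumour libraries and 3 liver libraries, 6 of the 16 mRNA libraries of the study, chosen by their labels alone. The 3 livers and 2 tumours of DEN-treated mice of 9 months on a cornstarch diet gave the same comparison on the other diet and entered the same fit, and the remaining 5 libraries were livers of 5 months. Every group had received DEN, the liver groups included, so no library came from an untreated liver. Strain is not given in the labels, nor is the mouse behind each library, so a tumour and a liver may come from the same animal. They also leave unsaid whether a tumour library is 1 nodule or several and whether the liver tissue was free of tumour. The p-values measure the spread between these libraries, and some of it may be technical. Libraries are named by tissue and a number given in the order of deposition, and no number pairs a liver with a tumour.

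DEN is activated by enzymes of the hepatocyte, the main parenchymal cell of the liver, and damages its DNA, so that hepatocellular tumours appear months later. In the normal liver, hepatocytes near the portal vein break down amino acids and make urea, those near the central vein depend on Wnt signals and make glutamine, and the sex-specific pattern of growth hormone release sets male and female gene programmes. Hepatocellular tumours are known to switch on genes of the fetal liver and to lose parts of these adult programmes.

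Values are normalised counts, that is, reads per gene divided by 1 factor per library, and are listed in the order of libraries 1, 2 and 3. Fold changes are tumour over liver, fitted to log2(value + 1), so that the change of low genes is understated. A gene was called at an adjusted p under 0.05. The 6 libraries held 14738874 to 38377674 reads, with liver 3 the deepest, and their 3 livers had correlations of 0.966 to 0.975 with each other across genes, the 3 tumours 0.919 to 0.949, and livers and tumours 0.890 to 0.922. Genes are not independent replicates, and these correlations describe the libraries only. The tumours differed more among themselves, with a median SD per gene of 0.30 on the log2 scale against 0.21 in the livers. Both tissues were rich in hepatocyte transcripts: albumin took 5.73% to 8.71% of the reads of a liver and 7.19% to 12.1% of those of a tumour, and limma called none of the 24 hepatocyte secreted and housekeeping genes (8 at an unadjusted p under 0.05, 0 called by edgeR and 5 by DESeq2). Mitochondrially encoded genes took 4.68% to 6.23% of the reads of the livers and 2.54% to 3.02% of those of the tumours.

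Of the 13984 genes tested, 838 (5.99%) were higher and 641 (4.58%) lower in the tumours by limma, and 3833 (27.4%) had an unadjusted p under 0.05. The 3 tumours and the 3 livers did not overlap for 1475 of the 1479 genes called, and for 4818 (34.5%) of all genes tested, with all tumours above all livers for 17.5% and below them for 17.0%. These shares of all genes are the background for the counts given per list below. The count moved most when a liver was left out: 721 genes were called without liver 1, 568 without liver 2 and 715 without liver 3, and 1073 to 1516 without any 1 tumour. By other tools run on the recovered reads, edgeR called 1517 genes and DESeq2 2434. In this bulk tissue, fewer cells of a type and less RNA per cell cannot be told apart.

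**Figure D1:**
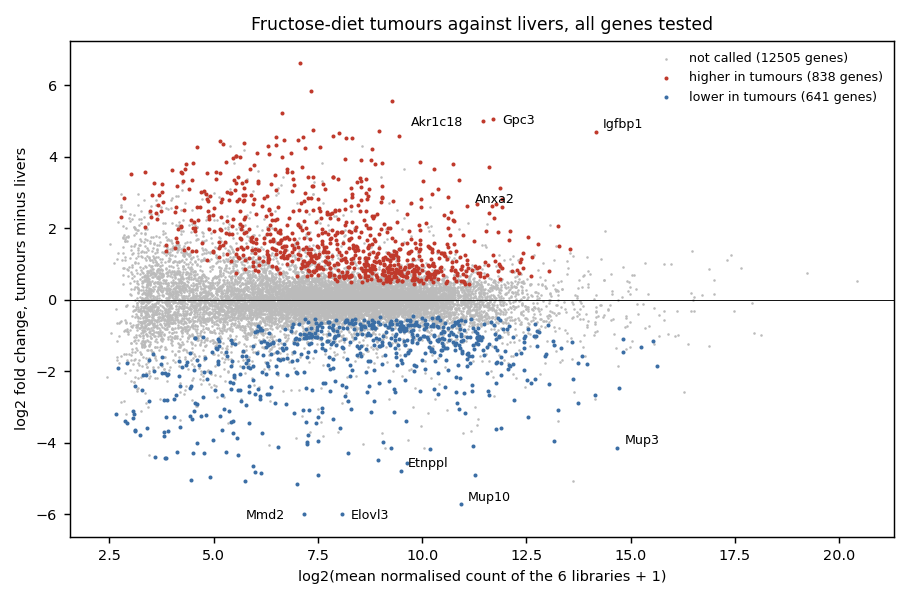
Each point is 1 of the 13984 genes tested, with the log2 of its mean normalised count over the 6 libraries on the x axis and its log2 fold change (fructose tumours minus livers) on the y axis. The 838 genes called higher (red) and the 641 called lower (blue) span low and high levels alike, and 9 genes named in the text are labelled.

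Leading genes were chosen among called genes whose tumours and livers did not overlap, so their separation follows from the choice. Of the 12 leading genes that were higher in the tumours 11 are described. All of these but Igfbp1 stood at no more than 555 in any liver. Meltf, which encodes the iron-binding surface protein melanotransferrin (ENSMUSG00000022780, chromosome 16, 31878810 to 31899020 on GRCm38), stood at 3.12, 2.24 and 4.53 in the livers and 66.9, 161 and 349 in the tumours. All 3 tumours lay far above every liver, and tumour 3 was the highest (log2 fold change 5.22, SE 0.78, limma adjusted p = 0.00396). Cdh17, the cadherin of the intestinal epithelium, stood at 27.1, 2.24 and 50.3 in the livers and 340.0, 509.7 and 2759 in the tumours. The livers were more uneven than the tumours for this gene, but did not reach them. The others were the membrane protein gene Tmc5 (log2 fold change 5.83), the oncofetal proteoglycan gene Gpc3 (5.05), the steroid dehydrogenase gene Akr1c18 (5.00), Fndc10 (4.75), the kinesin gene Kif5c (4.71), Igfbp1 (4.69), the stanniocalcin gene Stc1 (4.65), the trypsin inhibitor gene Spink1 (4.58) and Igdcc4 (4.57). Tmc5, Meltf, Akr1c18, Igfbp1 and Igdcc4 kept their calls with each of the 11 libraries left out (limma adjusted p at most 0.0446). Cdh17 lost its call without liver 2 and tumour 3 (limma adjusted p up to 0.0738), Gpc3 without liver 2 (0.0563) and Fndc10 without livers 1 and 2 and tumours 2 and 3 (up to 0.0889). Kif5c lost its call without liver 2 and tumour 1 (limma adjusted p up to 0.0587), Stc1 without livers 1, 2 and 3, tumours 2 and 3, cornstarch liver 3 and cornstarch tumours 1 and 2 (up to 0.117) and Spink1 without livers 1 and 2 and tumours 1 and 2 (up to 0.0915).

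Of the 12 leading genes that were lower, 4 were male-biased liver genes and 4 major urinary protein genes, with 2 in both lists. Mmd2 stood at 140.5, 343 and 359.8 in the livers and 6.09, 1.62 and 2.61 in the tumours (limma adjusted p = 0.00190). Elovl3, an elongase of fatty acids that is higher in males, stood at 1131, 112 and 331 in the livers and 35.6, 0 and 3.48 in the tumours. Etnppl, which breaks down phosphoethanolamine, stood at 1257, 1948 and 920.0 in the livers and 28.7, 26.7 and 130.5 in the tumours. All 3 tumours lay below all 3 livers for each of these genes, which the choice of leading genes required. Liver 1 was far above the other livers for Elovl3. Lrtm1 (log2 fold change -5.16), Tmem28 (-4.86), the sulphotransferase gene Sult5a1 (-4.65), the organic anion transporter gene Slco1a1 (-4.58) and Hamp2 (-4.90), a close copy of the hepcidin gene, were lower as well. The remaining 4 were the major urinary protein genes Mup10, Mup7, Mup16 and Mup17, whose near-identical copies make the split of reads between them uncertain. Mmd2, Lrtm1, Tmem28, Etnppl, Sult5a1, Slco1a1, Mup10, Mup7 and Mup16 kept their calls with each of the 11 libraries left out (limma adjusted p at most 0.0389). Among other fits, Mup7 lost the call with all 16 libraries fitted (adjusted p = 0.147) and without liver 3 and tumour 3 together (adjusted p = 0.0519). Elovl3 lost its call without livers 1 and 3 (limma adjusted p up to 0.0640), Hamp2 without livers 2 and 3 and tumours 2 and 3 (up to 0.0955) and Mup17 without livers 1, 2 and 3, tumours 2 and 3 and cornstarch livers 1, 2 and 3 (up to 0.141).

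**Figure D2:**
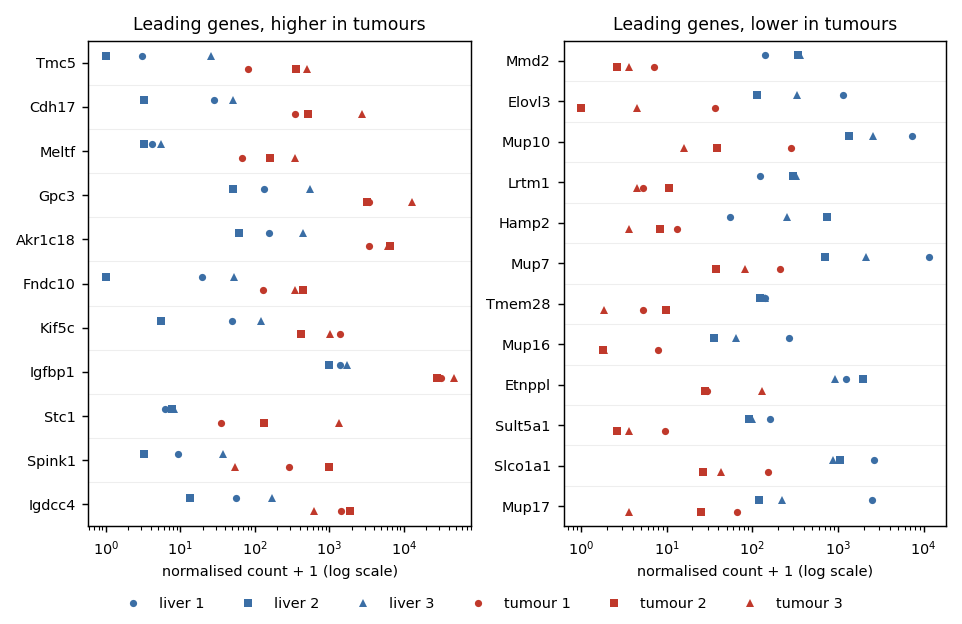
Normalised counts + 1 (x axis, log scale) of 11 of the 12 leading genes that were higher (left panel) and the 12 that were lower (right panel), with livers in blue and tumours in red and a marker shape per library. Only genes whose tumours and livers did not overlap were chosen, so tumours lie beyond all livers in both panels by that rule. The tumours lie to the right of the livers in the left panel and to the left of them in the right panel. Livers spread widely for Elovl3, Hamp2, Mup7 and Mup17.

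**Figure D3:**
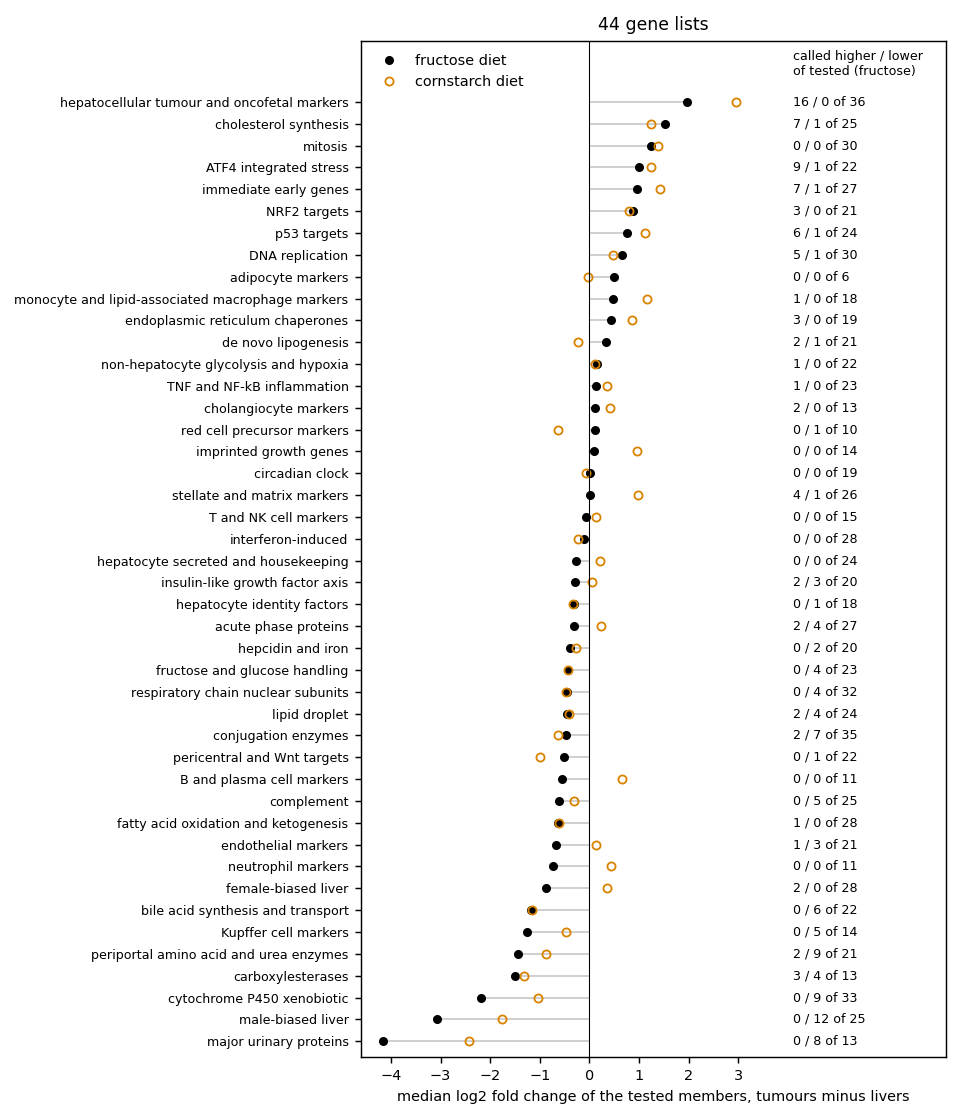
Median log2 fold change (x axis) of the tested members of each of the 44 gene lists, for fructose (filled) and cornstarch (open), with the number called higher and lower of those tested under fructose. Tumour and oncofetal markers and cholesterol synthesis lie at the top (1.97 and 1.52), and male-biased genes and major urinary proteins at the bottom (-3.08 and -4.16).

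Markers of hepatocellular tumours and of the fetal liver were the list with the highest median. Of 44 genes listed, 36 passed the filter on low values, 16 of these were higher and 0 lower in the tumours (5.99% and 4.58% of all genes tested), at a median log2 fold change of 1.97 against 0.00 over all genes tested. The list was chosen with earlier results of these data known, and a gene could pass the filter through its tumour values alone. The count is therefore a description and not an independent test. The count was between 11 and 16 with any 1 of the 11 libraries left out. Gpc3, which encodes the cell surface proteoglycan glypican-3 (ENSMUSG00000055653, chromosome X, 52272426 to 52613950), stood at 132, 49.3 and 555 in the livers and 3354, 3160.0 and 12801 in the tumours. Afp, the fetal counterpart of albumin, stood at 202, 48.2 and 484 in the livers and 1441, 1345 and 6692 in the tumours. For both genes tumour 3 was the highest and every tumour exceeded every liver, and both were called. Gpc3 was 33.2-fold higher (log2 fold change 5.05, SE 1.03, limma adjusted p = 0.0141) and Afp 13.9-fold higher (log2 fold change 3.80, SE 0.97, limma adjusted p = 0.0343). Ly6d, a small surface protein of progenitor and epithelial cells, stood at 310.0, 272 and 942 in the livers and 4109, 6252 and 6894 in the tumours and was 13.0-fold higher. Akr1c18, the enzyme that inactivates progesterone, stood at 154, 60.5 and 440.0 in the livers and 3426, 6565 and 6138 in the tumours, a 32.0-fold difference. Golm1, a Golgi membrane protein known as a serum marker of liver cancer, stood at 118, 76.1 and 181 in the livers and 1001, 1226 and 529.8 in the tumours. The tumours were close to each other for Akr1c18 and Ly6d, while for Golm1 tumour 3 was the lowest of the tumours.

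Genes of growth arrest, adhesion and epithelial character were among the other tumour markers called. Cdkn2a and Cdkn2b, neighbouring genes that encode inhibitors of the G1 kinases, were 6.15-fold and 22.1-fold higher (limma adjusted p = 0.00852 and 0.00540). Cdkn2b stood at 14.6, 2.24 and 18.1 in the livers and 398, 228 and 113 in the tumours. Anxa2 and S100a11, members of calcium-binding families that act at the membrane, were 6.09-fold and 4.03-fold higher, and Anxa2 was among the genes with the smallest p (log2 fold change 2.61, SE 0.24, limma adjusted p = 0.00128). Ddr1, a collagen receptor kinase, stood at 63.5, 71.7 and 64.8 in the livers and 736, 432 and 323 in the tumours. Nrg1, a ligand of the ERBB receptors, stood at 11.4, 8.96 and 14.5 in the livers and 149, 281 and 62.6 in the tumours, and tumour 2 was the highest. Tspan8, a tetraspanin, stood at 53.1, 59.4 and 566 in the livers and 1735, 1815 and 1737 in the tumours, with liver 3 well above the other livers. Spp1, Prom1, Cd24a and Anxa5 completed the 16 genes, at log2 fold changes of 1.90, 3.33, 1.47 and 0.74. Ly6d, Golm1, Akr1c18, Cdkn2a, Cdkn2b, Anxa2, S100a11, Ddr1 and Nrg1 kept their calls with each of the 11 libraries left out (limma adjusted p at most 0.0350). Afp lost its call without livers 1 and 2 and tumours 1 and 3 (limma adjusted p up to 0.116), Gpc3 without liver 2 (0.0563) and Tspan8 without liver 2 (0.0548). Spp1 lost its call without livers 1, 2 and 3, tumours 1 and 2 and cornstarch livers 1, 2 and 3 (limma adjusted p up to 0.117), Prom1 without liver 1 and tumour 2 (up to 0.0647) and Cd24a without livers 1 and 3 and tumour 1 (up to 0.117). Anxa5 lost its call without livers 1 and 2 (limma adjusted p up to 0.0683). Cbr3, a carbonyl reductase, stood at 52.0, 88.5 and 111 in the livers and 59.1, 1197 and 2023 in the tumours, with tumour 1 among the livers, and was not called (limma adjusted p = 0.124). Tff3, a trefoil peptide, stood at 376, 278 and 1741 in the livers and 1092, 331 and 419 in the tumours, with liver 3 above every tumour, and was not called either. Liver 3 was the highest of the livers in 18 of the 36 markers (50%) against 30.8% of all genes, and the part that this library's tissue plays in its levels was not tested.

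Imprinted growth genes were not among those called. H19, a noncoding RNA of the fetal liver, stood at 736, 148 and 1939 in the livers and 1242, 39.6 and 331 in the tumours, so that livers and tumours overlapped across a wide range. Igf2, the fetal growth factor gene next to it, stood at 20.8, 43.7 and 24.5 in the livers and 48.7, 5.66 and 6.09 in the tumours and was at low levels throughout. Of the 14 imprinted genes tested limma called none (2 at an unadjusted p under 0.05, 1 by edgeR, 3 by DESeq2), at a median of 0.10.

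Around insulin-like growth factor 1, the liver hormone that growth hormone induces, 2 of 20 listed genes were higher in the tumours (5.99% of all genes). They were the binding protein genes Igfbp1 and Igfbp3. Igf1, Ghr and Igfals were lower (4.58% of all genes), 15 were not called, and the median was -0.29. Igfbp1, a secreted binding protein that keeps the growth factor from its receptor (ENSMUSG00000020429, chromosome 11, 7197782 to 7202546), stood at 1400.4, 988 and 1704 in the livers and 31163, 27994 and 46755 in the tumours. Every tumour lay far above every liver, a 25.8-fold difference (log2 fold change 4.69, SE 0.62, limma adjusted p = 0.00234). Igf1 itself stood at 8137, 14617 and 9517 in the livers and 1153, 1943 and 5043 in the tumours. Ghr, the growth hormone receptor gene, stood at 7022, 7409 and 6186 in the livers and 1386, 1760.4 and 2829 in the tumours and was 3.60-fold lower (log2 fold change -1.85, SE 0.25, limma adjusted p = 0.00278). Igfals, which encodes the subunit that keeps the hormone in the circulation, stood at 1916, 2518 and 1699 in the livers and 172, 332 and 783 in the tumours. For Igf1, Ghr and Igfals alike tumour 3 was the highest of the tumours and still below all livers. Igfbp3, the main carrier in serum, was 3.78-fold higher. Igfbp1 and Ghr kept their calls with each of the 11 libraries left out (limma adjusted p at most 0.0162). Igf1 lost its call without livers 1, 2 and 3 and tumours 1 and 2 (limma adjusted p up to 0.0915), Igfals without livers 1, 2 and 3 and tumours 1 and 2 (up to 0.0991) and Igfbp3 without livers 1, 2 and 3, tumours 1 and 3, cornstarch livers 1, 2 and 3 and cornstarch tumours 1 and 2 (up to 0.123).

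Male-biased liver genes, which depend on the pulses of growth hormone, had the lowest median after the major urinary proteins. Of 25 tested, 12 were lower (4.58% of all genes) and 0 higher, 23 had a negative log2 fold change, and the median was -3.08. The lower count was between 9 and 16 with any 1 of the 11 libraries left out. Liver 1 was the highest liver for 21 of the 25 (36.0% of all genes), and the list's summed level was 187385, 84316 and 125313 in the livers and 70719, 21182 and 29286 in the tumours. Mup3, 1 of the major urinary protein genes (ENSMUSG00000066154, chromosome 4, 62083476 to 62087342), stood at 51313, 41547 and 56139 in the livers and 4032, 2847 and 1893 in the tumours. Its tumours were 17.7-fold below its livers (log2 fold change -4.14, SE 0.41, limma adjusted p = 0.00128). Hsd3b5, a steroid dehydrogenase of male liver, stood at 578, 161 and 120.1 in the livers and 27.8, 4.85 and 13.9 in the tumours. Susd4, a regulator of complement, stood at 344, 188 and 229 in the livers and 26.1, 27.5 and 30.4 in the tumours, so the tumours differed little among themselves. Nudt7, a peroxisomal hydrolase, was 3.59-fold lower (limma adjusted p = 0.00477). Of the 13 major urinary protein genes tested, all had a negative log2 fold change and 8 were lower (median -4.16), a count that was between 6 and 9 with any 1 of the 11 libraries left out. Their summed level, which does not depend on how reads were split between the copies, was 116263, 48367 and 74929.6 in the livers and 24857, 11622 and 5508 in the tumours. Mup20, the gene of the male pheromone darcin, overlapped between tissues, at 35677, 3992 and 12594 in the livers and 20003, 8591 and 3461 in the tumours. The 28 female-biased genes held 2 called higher, Abcd2 (2.27) and Prom1, and 0 called lower (5.99% and 4.58% of all genes). Their median was -0.88, of the same sign as that of the male-biased genes. Against the mean of the livers it was -2.22 in tumour 1, -0.54 in tumour 2 and 0.25 in tumour 3. The summed level of the list was 11539, 38849 and 26435 in the livers and 49511, 29763 and 79202 in the tumours. It was thus highest in tumours 1 and 3, with tumour 2 among the livers. Mup3, Hsd3b5, Susd4, Nudt7 and Abcd2 kept their calls with each of the 11 libraries left out (limma adjusted p at most 0.0357). Among other fits, Hsd3b5 and Nudt7 lost their calls with all 16 libraries fitted (adjusted p up to 0.122). In the 11 libraries of 9 months summed Y-linked genes stood at 1593 to 2602 and Xist at no more than 226, a male pattern. Cornstarch liver 3 had both the highest Xist and the lowest Y-linked sum, and every other library of 9 months had Xist of at most 25.8. The source of the Xist reads in cornstarch liver 3 was not tested. The fit of all 16 added liver 1 of 5 months on fructose and on cornstarch, with a female pattern (Xist 12936 and 10883, Y-linked 0 and 1.91). The part of these 2 livers of 5 months in these lost calls, and in that of Mup7, was not tested.

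Genes that growth factor signalling induces within minutes were called mostly in the higher direction. Of 27 immediate early genes 7 were higher (5.99% of all genes) and 1, the shear-stress factor gene Klf2 (-0.88), lower (4.58%), at a median of 0.97. The higher count was 4 without livers 2 or 3, and 5 to 10 with any other library left out. Dusp6, a phosphatase that ERK induces and that in turn inactivates ERK, stood at 647, 742 and 753 in the livers and 1979, 2984 and 2625 in the tumours. Every tumour was more than 2-fold above the highest liver, and the gene was called (log2 fold change 1.81, SE 0.24, limma adjusted p = 0.00234). Egr1, a zinc finger factor induced by serum, stood at 295, 237 and 246 in the livers and 1867, 2602 and 799 in the tumours. Ier3, Klf6, Atf3, Fosl1 and Myc were 6.46-fold, 2.23-fold, 2.98-fold, 9.36-fold and 2.94-fold higher, with Fosl1 at no more than 31.3 in any library. Ccnd1, the cyclin that growth factors induce, stood at 471, 1050.4 and 400.2 in the livers and 1932, 8004 and 3403 in the tumours, highest in tumour 2 (log2 fold change 2.68, SE 0.54, limma adjusted p = 0.0132). Egfr, the receptor gene upstream of this pathway, was not called (-0.60). Dusp6, Ier3 and Klf6 kept their calls with each of the 11 libraries left out (limma adjusted p at most 0.0348). Egr1 lost its call without liver 2 (limma adjusted p 0.0536), Atf3 without livers 2 and 3 and tumour 1 (up to 0.0650) and Fosl1 without livers 1, 2 and 3 and tumours 1 and 3 (up to 0.105). Myc lost its call without liver 3 and tumour 2 (limma adjusted p up to 0.0609), Klf2 without livers 1, 2 and 3, tumours 2 and 3, cornstarch liver 2 and cornstarch tumours 1 and 2 (up to 0.153) and Ccnd1 without livers 1 and 3 (up to 0.0523).

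Targets of p53, the tumour suppressor that responds to DNA damage, were higher in 6 of 24 cases and lower in 1 (median 0.76), against 5.99% and 4.58% of all genes. The higher count was 12 without tumour 3, and 4 to 6 with any other library left out. Psrc1, a spindle protein gene, stood at 14.6, 11.2 and 20.4 in the livers and 284, 623 and 166 in the tumours. It was 19.4-fold higher (log2 fold change 4.28, SE 0.41, limma adjusted p = 0.00128), and tumour 2 was the highest. Tnfrsf10b, the death receptor for TRAIL, stood at 12.5, 11.2 and 20.4 in the livers and 151, 198 and 94.8 in the tumours. Phlda3, an inhibitor of AKT, stood at 47.9, 51.5 and 87.5 in the livers and 298, 583 and 189.6 in the tumours. For all 3 of these genes tumour 3 was the lowest of the tumours and remained above every liver. The translesion polymerase gene Polk, the apoptosis gene Bax and Zmat3 were 2.60-fold, 1.77-fold and 2.54-fold higher. Fas, the death receptor gene, was 2.22-fold lower. Cdkn1a, the best known of these targets, stood at 703, 165 and 868 in the livers and 2150.2, 1502 and 332 in the tumours, and was not called, with tumour 3 among the livers. Psrc1, Tnfrsf10b, Phlda3 and Polk kept their calls with each of the 11 libraries left out (limma adjusted p at most 0.0312). Bax lost its call without liver 2 (limma adjusted p 0.0559), Zmat3 without livers 1 and 2 (up to 0.0540) and Fas without livers 1 and 3 (up to 0.0732).

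Calls among cell cycle genes lay in the DNA replication list. Of 30 replication genes 5 were higher and 1 lower (5.99% and 4.58% of all genes), and all 3 tumours lay above all livers for 20 of them (17.5% of all genes). The higher count was 3 without livers 1 or 3 and 8 without cornstarch liver 1, and 4 to 6 with any other library left out. Mcm2, a subunit of the replicative helicase, stood at 71.8, 61.6 and 105 in the livers and 264, 335 and 319 in the tumours. It was 3.89-fold higher, and the tumours lay close together (log2 fold change 1.96, SE 0.21, limma adjusted p = 0.00162). Mcm6, a subunit of the same helicase, was 2.78-fold, Uhrf1, which helps copy DNA methylation, 5.01-fold, Ccne1, the cyclin of S phase entry, 6.02-fold and the loading factor gene Cdc6 4.15-fold higher. Mcm10 went the other way, at 744, 798 and 399 in the livers and 98.2, 197 and 178 in the tumours. Of the 30 mitosis genes limma called none (7 at an unadjusted p under 0.05, 0 by edgeR and 2 by DESeq2), although 30 of 30 had a positive log2 fold change (49.6% of all genes), at a median of 1.25. Mki67 stood at 84.3, 84.0 and 267 in the livers and 205, 323 and 638 in the tumours (limma adjusted p = 0.189). Liver 3 lay above tumour 1 for it, and was the highest liver for 30 of the 30 mitosis genes (30.8% of all genes). The list's summed level was 497, 672 and 1653 in the livers and 1123, 2037 and 3598 in the tumours. Top2a, the topoisomerase of dividing cells, stood at 43.7, 40.3 and 102 in the livers and 137, 178 and 280.1 in the tumours, and tumour 3 was the highest for both. Mcm2, Mcm6, Uhrf1 and Mcm10 kept their calls with each of the 11 libraries left out (limma adjusted p at most 0.0332). Among other fits, Uhrf1 lost the call without liver 3 and tumour 3 together (adjusted p = 0.0537). Ccne1 lost its call without livers 1 and 3 (limma adjusted p up to 0.0541) and Cdc6 without livers 1, 2 and 3 and tumour 1 (up to 0.0985).

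The amino acid stress programme of the transcription factor ATF4, which acts when translation initiation is slowed, was called mostly in the higher direction. Of 22 listed genes 9 were higher and 1 lower (5.99% and 4.58% of all genes), at a median of 1.01. All 3 tumours lay above all livers for 12 (17.5% of all genes). The higher count was 1 without liver 2, 3 without liver 3 and 5 without tumour 1, and 7 to 10 with any other library left out. Enzymes of serine synthesis were among them. Psat1, its middle step, stood at 81.2, 20.2 and 50.3 in the livers and 858, 464 and 759 in the tumours, a log2 fold change of 3.91. Phgdh, the entry step of the pathway, stood at 41.6, 5.60 and 11.8 in the livers and 265, 67.1 and 442 in the tumours, and Psph, its last step, was 2.67-fold higher. Asns, which makes asparagine, stood at 58.3, 23.5 and 38.5 in the livers and 529, 118 and 317 in the tumours. Tumours 1 and 3 were above tumour 2 for Psat1, Phgdh and Asns. Trib3 and Ddit3, which act downstream of ATF4 in stressed cells, were 3.98-fold and 2.37-fold higher, and Aldh18a1, the first enzyme of proline synthesis, 3.49-fold. Slc7a11, the cystine importer, stood at 10.4, 44.8 and 39.0 in the livers and 109.6, 289.6 and 2125 in the tumours, with tumour 3 far above the others. Cth, which makes cysteine from methionine, was the 1 listed gene that was lower, at 2675, 3427 and 3692 in the livers and 923, 1244 and 913 in the tumours (log2 fold change -1.67, SE 0.22, limma adjusted p = 0.00227). Psat1 and Cth kept their calls with each of the 11 libraries left out (limma adjusted p at most 0.0491). Among other fits, Psat1 lost the call without liver 3 and tumour 3 together (adjusted p = 0.0555). Phgdh lost its call without livers 2 and 3 and tumours 1 and 3 (limma adjusted p up to 0.0844), Psph without livers 1, 2 and 3 and tumours 1 and 2 (up to 0.0946) and Asns without livers 2 and 3 (up to 0.0673). Trib3 lost its call without liver 2 (limma adjusted p 0.0545), Ddit3 without livers 2 and 3 and tumour 1 (up to 0.0751) and Aldh18a1 without liver 2 (0.0650). Atf3 lost its call without livers 2 and 3 and tumour 1 (limma adjusted p up to 0.0650) and Slc7a11 without livers 1, 2 and 3 (up to 0.0933).

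ATF4 binds an amino acid response element, searched here as TGATGNAA on both strands of windows from 250 bases before to 50 after each start (RefSeq, GRCm38.p6). Of the 20 listed genes with a window 6 held it, against 4.51% of all 27025 genes and 3.97% of all 32851 windows: Atf3, Asns, Trib3 and Slc7a11, which were higher, and Chac1 and Fgf21, which were not called. The 3 called genes with a match before the start are shown, with the match in capitals. Each of the 3 lost its call without some of the libraries, as given above.
Asns (chr6:7693210-7693247, minus strand): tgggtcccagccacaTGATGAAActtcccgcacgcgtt
Atf3 (chr1:191183421-191183458, minus strand): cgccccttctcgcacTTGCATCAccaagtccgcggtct
Slc7a11 (chr3:50443638-50443694, minus strand): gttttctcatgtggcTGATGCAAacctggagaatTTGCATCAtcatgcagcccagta
Slc7a11 held 2 copies in opposite directions, and a link between matches and levels was not tested. A match is a description of these letters and not a binding site. The list of endoplasmic reticulum chaperones held 3 genes called higher of 19 and 0 lower (5.99% and 4.58% of all genes), at a median of 0.44. They were Dnajb9 (0.88), Pdia6 (1.31) and the transcription factor gene Xbp1 (0.82). The higher count was between 0 and 6 over the 24 alternative fits. Dnajb9 lost its call without livers 2 and 3 and tumour 1 (limma adjusted p up to 0.0909), Pdia6 without livers 2 and 3 and tumour 2 (up to 0.0841) and Xbp1 without livers 1, 2 and 3 and tumours 1 and 3 (up to 0.103).

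Genes of cholesterol synthesis had the highest median after the tumour markers. Of 25 listed genes 7 were higher (5.99% of all genes) and 1, the isomerase gene Ebp (-1.04), lower (4.58%), at a median of 1.52. All tumours lay above all livers for 16 of the 25, against 17.5% of all genes. The higher count was 0 without livers 1 or 2, 1 without tumour 3, 2 without liver 3, 4 without tumour 2 and 11 without cornstarch liver 2, and 6 to 8 with any other library left out. Mvk, the mevalonate kinase, stood at 88.4, 138 and 134 in the livers and 357, 324 and 766 in the tumours. Sqle, which commits squalene to sterols, stood at 149, 290.0 and 444 in the livers and 1518, 2479.6 and 3149 in the tumours. Tumour 3 was the highest for both of these genes, and no tumour overlapped the livers. Fdft1, which makes squalene, and the later steps Lss, Cyp51 and Dhcr7 were 2.48-fold, 5.12-fold, 4.69-fold and 3.97-fold higher. Mvk lost its call without livers 1, 2 and 3 and tumours 1 and 3 (limma adjusted p up to 0.114), Sqle without livers 1 and 2 (up to 0.0699) and Fdft1 without livers 1, 2 and 3, tumours 2 and 3, cornstarch liver 1 and cornstarch tumours 1 and 2 (up to 0.122). Lss lost its call without livers 1, 2 and 3 and tumours 2 and 3 (limma adjusted p up to 0.116), Cyp51 without livers 1, 2 and 3 and tumour 3 (up to 0.115) and Dhcr7 without livers 1, 2 and 3 and tumours 2 and 3 (up to 0.107). Ebp lost its call without livers 2 and 3 (limma adjusted p up to 0.0729).

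The CCAAT box, bound by NF-Y, which works beside SREBP2 at sterol promoters, was searched as CCAAT on both strands of the same windows. It lay in 16 of the 17 listed genes with a window (94.1%), against 41.1% of all genes and 37.4% of all windows, while the sterol regulatory element searched as TCACNCCAC lay in 1 of the 17, Hmgcs1, against 1.44% of all genes. For the 4 higher genes with a window a stretch is shown, with its boxes in capitals. For Mvk the stretch holds 2 of the 5 boxes in its window.
Mvk (chr5:114444081-114444190, plus strand): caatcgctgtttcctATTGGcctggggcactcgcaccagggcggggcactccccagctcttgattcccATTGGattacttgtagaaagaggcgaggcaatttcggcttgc
Lss (chr10:76531528-76531562, plus strand): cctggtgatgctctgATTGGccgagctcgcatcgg
Cyp51 (chr5:4104707-4104741, minus strand): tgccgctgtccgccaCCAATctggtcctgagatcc
Dhcr7 (chr7:143830114-143830184, plus strand): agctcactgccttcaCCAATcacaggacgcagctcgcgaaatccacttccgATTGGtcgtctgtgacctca
Ebp, the gene that was lower, held the box as well, so it did not separate the directions.

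**Figure D4:**
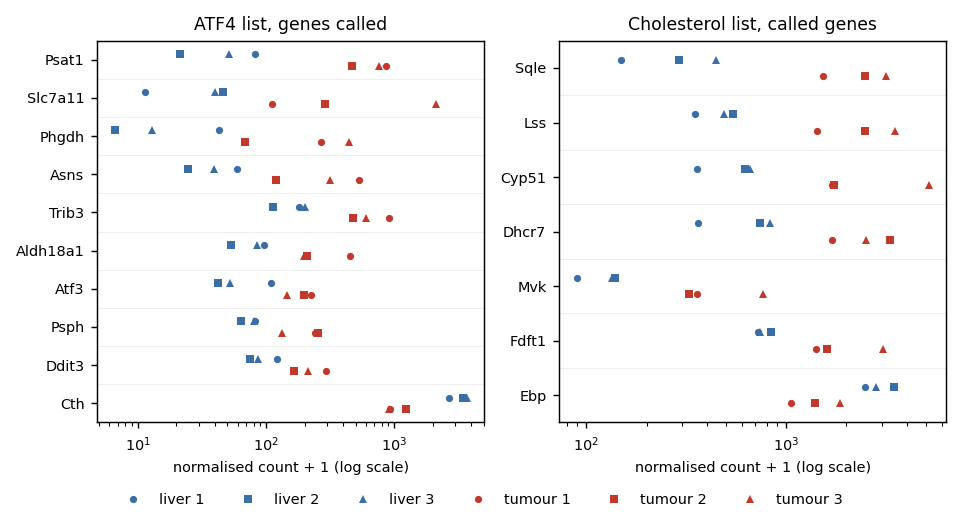
Normalised counts + 1 (x axis, log scale) per library for the 10 genes called in the ATF4 list (left) and 7 of the 8 called in the cholesterol synthesis list (right), with livers in blue and tumours in red. Tumours lie to the right of all livers except for Cth and Ebp, and liver 1 is the lowest of the livers for the 6 cholesterol genes shown that were higher.

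Few genes of fatty acid synthesis were called, a share near the 10.6% of all genes. Of 21 genes of de novo lipogenesis 2 were higher and 1 lower (median 0.34, and -0.36 without liver 1). Fasn, the fatty acid synthase, stood at 1889, 7359 and 4249.5 in the livers and 3549, 25970.1 and 14166 in the tumours. Scd1, the main liver desaturase, stood at 18075, 708171 and 416727 in the livers and 10756, 412776 and 156209 in the tumours. Livers and tumours overlapped for both, with liver 1 and tumour 1 low in each tissue. Scd2, a desaturase of the immature and non-hepatic tissues, was higher, at 343, 589 and 922 in the livers and 1342, 11168 and 8089 in the tumours (log2 fold change 3.11, SE 0.78, limma adjusted p = 0.0314). Fads2, which desaturates polyunsaturated fatty acids, was 2.69-fold higher and the acyltransferase gene Agpat2 2.05-fold lower. Srebf1 and Acaca were not called (0.35 and 0.85). Among 24 lipid droplet genes Plin3 (1.77-fold) and Hilpda (2.86-fold) were higher, and Plin4, Plin5, Cidea and Mogat1 lower, by 10.5-fold, 2.80-fold, 6.29-fold and 10.1-fold. Plin3 and Mogat1 kept their calls with each of the 11 libraries left out (limma adjusted p at most 0.0311). Scd2 lost its call without livers 1, 2 and 3 and tumours 2 and 3 (limma adjusted p up to 0.104), Fads2 without livers 1, 2 and 3, tumours 2 and 3, cornstarch livers 2 and 3 and cornstarch tumours 1 and 2 (up to 0.147) and Agpat2 without livers 1 and 3 (up to 0.0717). Hilpda lost its call without livers 1, 2 and 3 and tumour 1 (limma adjusted p up to 0.121), Plin4 without livers 1, 2 and 3 and tumours 1 and 2 (up to 0.110) and Plin5 without livers 1 and 3 and tumour 1 (up to 0.0792). Cidea lost its call without livers 1, 2 and 3 and tumours 1, 2 and 3 (limma adjusted p up to 0.125).

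Genes that handle dietary fructose and glucose were lower or not called. Of 23 genes of fructose and glucose handling 4 were lower and 0 higher (4.58% and 5.99% of all genes), at a median of -0.42. The lower count was 0 without livers 2 or 3 or tumour 1, and 3 to 4 with any other library left out. Slc2a5, the fructose transporter, stood at 60.3, 244 and 129 in the livers and 21.7, 37.2 and 45.2 in the tumours, and all tumours were below all livers (log2 fold change -1.87, SE 0.44, limma adjusted p = 0.0240). Khk, the kinase that traps fructose in the cell, stood at 3259.6, 6355 and 5948 in the livers and 1646, 3624 and 2404 in the tumours. It was not called (log2 fold change -1.03, SE 0.38, limma adjusted p = 0.111), and liver 1 lay among the tumours. G6pc, which releases glucose, stood at 2760.2, 4504 and 3936 in the livers and 335, 475 and 2084 in the tumours. Fbp1, the bisphosphatase of gluconeogenesis, and Gckr, the regulator of glucokinase, were 2.53-fold and 2.11-fold lower. Of the 22 glycolysis genes of other tissues and of hypoxia, only Pfkp was called higher (1.84-fold) and none lower. Slc2a5 lost its call without livers 2 and 3 and tumour 1 (limma adjusted p up to 0.0733), G6pc without livers 1, 2 and 3, tumours 1 and 2, cornstarch livers 2 and 3 and cornstarch tumours 1 and 2 (up to 0.137) and Fbp1 without livers 2 and 3 and tumour 1 (up to 0.105). Gckr lost its call without livers 2 and 3 and tumour 1 (limma adjusted p up to 0.0882) and Pfkp without livers 1, 2 and 3 and tumours 1 and 3 (up to 0.0964).

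Cytochrome P450 enzymes, which oxidise foreign compounds, were called in the lower direction alone. Of 33 cytochrome P450 genes 9 were lower and 0 higher (4.58% and 5.99% of all genes), at a median of -2.18. All tumours lay below all livers for 20, against 17.0% of all genes. The lower count was 5 without livers 1, 2 or 3 and 18 without tumour 3, and 7 to 13 with any other library left out. Cyp2c29 stood at 10647, 10125 and 9996 in the livers and 429, 702 and 3807 in the tumours. Cyp2j5, an epoxygenase, stood at 9033, 7738 and 7079 in the livers and 747, 663 and 2896 in the tumours. Tumour 3 kept the most of both, and was still below every liver. Cyp2c50, Cyp4f14 and Cyp3a25 were 12.3-fold, 4.52-fold and 3.57-fold lower. Ugt3a1, Sult1d1 and Sult2a8 were among 7 conjugation enzymes called lower of 35, by 8.77-fold, 2.28-fold and 17.1-fold, while Gstp2 (7.86-fold) and Gsta4 (2.98-fold), glutathione transferases, were higher. Gstp1 and Gstp2 are near-identical copies, so the split between them is uncertain. Cyp2c29, Cyp2j5 and Ugt3a1 kept their calls with each of the 11 libraries left out (limma adjusted p at most 0.0471). Cyp2c50 lost its call without liver 1 (limma adjusted p 0.0541), Cyp4f14 without livers 2 and 3 and tumour 2 (up to 0.0704) and Cyp3a25 without livers 1, 2 and 3 and tumour 1 (up to 0.0939). Sult1d1 lost its call without liver 2 (limma adjusted p 0.0605), Sult2a8 without liver 1 and tumour 2 (up to 0.0641) and Gstp2 without livers 1, 2 and 3 and tumours 2 and 3 (up to 0.114). Gsta4 lost its call without livers 1, 2 and 3 and tumours 2 and 3 (limma adjusted p up to 0.117).

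Of 22 genes of bile acid synthesis and transport 6 were lower and 0 higher (4.58% and 5.99% of all genes), at a median of -1.19. The lower count was 2 without liver 2, 3 without livers 1 or 3 or tumour 1 and 11 without tumour 3, and 6 to 7 with any other library left out. Those called were the uptake transporter gene Slc10a1, at 8207, 10409.8 and 9948 in the livers and 1422, 1539 and 3502 in the tumours, and Slco1a1, the conjugating enzymes Baat (2.89-fold) and Slc27a5 (2.42-fold), the reductase gene Akr1d1 (2.83-fold) and the bile acid receptor gene Nr1h4 (2.20-fold). Cyp7a1, the rate-limiting enzyme of bile acid synthesis, stood at 2834, 7382 and 1883 in the livers and 151, 202 and 2446 in the tumours, and was not called. Tumours 1 and 2 were far below the livers and tumour 3 among them. Carboxylesterases, which cleave esters and lipids, were called in both directions: Ces2c (2.15), Ces2e (2.06) and Ces2g (1.30) were higher and Ces1e (-2.54), Ces2a (-1.50), Ces3a (-3.08) and Ces3b (-2.62) lower, by log2 fold change. Baat kept the call with each of the 11 libraries left out (limma adjusted p at most 0.0257). Slc10a1 lost its call without liver 2 (limma adjusted p 0.0508), Akr1d1 without livers 1, 2 and 3 and tumour 1 (up to 0.0726) and Slc27a5 without livers 1, 2 and 3 and tumour 1 (up to 0.0915). Nr1h4 lost its call without livers 1, 2 and 3 and tumour 1 (limma adjusted p up to 0.0633), Ces2c without livers 1, 2 and 3, tumours 2 and 3, cornstarch livers 1, 2 and 3 and cornstarch tumours 1 and 2 (up to 0.149) and Ces2e without livers 1 and 2 and tumour 2 (up to 0.0810). Ces2g lost its call without liver 1 (limma adjusted p 0.0611), Ces1e without livers 1 and 2 (up to 0.0555) and Ces2a without livers 1 and 2 and tumours 1 and 3 (up to 0.0904). Ces3a lost its call without livers 1, 2 and 3 and tumours 1 and 2 (limma adjusted p up to 0.0875) and Ces3b without liver 2 (0.0508).

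Genes of the periportal list, which includes enzymes of amino acid breakdown and the urea cycle, were called mostly in the lower direction. Of 21 tested 9 were lower and 2 higher (4.58% and 5.99% of all genes), at a median of -1.43. The lower count was 4 without livers 2 or 3, and 6 to 10 with any other library left out. Pigr, the receptor that carries antibodies into bile, stood at 25013, 21759 and 25495 in the livers and 3973, 3798 and 2204 in the tumours. Cyp2f2, a classic periportal P450, stood at 10547, 4777 and 5692 in the livers and 593, 525 and 522 in the tumours (log2 fold change -3.59, SE 0.48, limma adjusted p = 0.00234). The tumours lay close together for Cyp2f2, and each was more than 8-fold below each liver. Sds and Hal, which break down serine and histidine, were 8.35-fold and 6.41-fold lower and lowest in tumour 3. Otc and Asl of the urea cycle, Aass of lysine breakdown and the protease gene Ctsc were 2.69-fold, 2.82-fold, 3.83-fold and 2.57-fold lower. The 2 listed genes that were higher were Cdh1, the epithelial cadherin, at 341, 261 and 552 in the livers and 3524, 2630.1 and 2072 in the tumours, and Serpina12, a secreted serpin, 6.08-fold. Like Pigr, Cyp2f2 and Ctsc among the lower genes, these 2 are not enzymes of amino acid breakdown or the urea cycle. Pigr, Cyp2f2, Otc and Cdh1 kept their calls with each of the 11 libraries left out (limma adjusted p at most 0.0350). Sds lost its call without livers 2 and 3 and tumour 3 (limma adjusted p up to 0.0997), Hal without livers 2 and 3 (up to 0.109) and Asl without livers 2 and 3 and tumour 1 (up to 0.0842). Aass lost its call without livers 1, 2 and 3, tumours 1 and 3, cornstarch livers 1, 2 and 3 and cornstarch tumours 1 and 2 (limma adjusted p up to 0.141), Ctsc without livers 1, 2 and 3 and tumour 1 (up to 0.0625) and Serpina12 without liver 1 (0.0522).

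Nuclear genes of the respiratory chain differed by small amounts in 1 direction. All 32 had a negative log2 fold change, where 49.6% of all genes had a positive one, and the median was -0.46. All tumours lay below all livers for 27 (17.0% of all genes). Limma called 4 lower (4.58% of all genes), edgeR called 3 and DESeq2 13. The lower count was 0 without livers 1, 2 or 3 or tumour 1 and 2 without cornstarch liver 1, and 3 to 5 with any other library left out. Cox5b, a subunit of cytochrome c oxidase, stood at 1971, 1617 and 1877 in the livers and 851, 1163 and 1201 in the tumours. Sdhb, of succinate dehydrogenase, stood at 2135, 2243 and 2285 in the livers and 1170.3, 1827 and 1291 in the tumours, and the complex I genes Ndufb3 and Ndufb5 were 1.73-fold and 1.53-fold lower. The share of reads from mitochondrially encoded genes was lower in every tumour too, as given above, and how far the 2 are linked was not tested. Of 28 genes of fatty acid oxidation and ketogenesis 0 were called lower and 1 higher, Bdh1 (2.30-fold), at a median of -0.63. Of the 28, 22 had a negative log2 fold change, and all tumours lay below all livers for 12 (17.0% of all genes). An unadjusted p under 0.05 was seen for 12, while edgeR called 1 and DESeq2 6. Liver 1 was the highest liver for 24 (36.0% of all genes). Cox5b lost its call without livers 1, 2 and 3 and tumours 1 and 2 (limma adjusted p up to 0.119), Sdhb without livers 1, 2 and 3, tumours 1 and 3, cornstarch livers 1 and 3 and cornstarch tumours 1 and 2 (up to 0.130) and Ndufb3 without livers 1, 2 and 3, tumours 1 and 3 and cornstarch livers 1 and 2 (up to 0.133). Ndufb5 lost its call without livers 1, 2 and 3 and tumours 1 and 2 (limma adjusted p up to 0.109) and Bdh1 without livers 2 and 3, tumours 1, 2 and 3 and cornstarch liver 2 (up to 0.137).

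The pericentral and Wnt target genes set the 3 tumours apart from each other. Glul, the glutamine synthetase of the last hepatocytes before the central vein (ENSMUSG00000026473, chromosome 1, 153899944 to 153909723), stood at 26731, 25153 and 21589 in the livers and 2478, 3187 and 115419 in the tumours. Tumours 1 and 2 lay below every liver, and tumour 3 was more than 4-fold above every liver. Axin2, the feedback inhibitor that Wnt signalling induces in most tissues, stood at 169, 188 and 242 in the livers and 41.7, 97.9 and 1329 in the tumours. Notum, a secreted Wnt inhibitor, stood at 368, 432 and 391 in the livers and 62.6, 106 and 1328 in the tumours. Both repeated the order seen for Glul. Nkd1 stood at 123, 86.2 and 87.0 in the livers and 44.3, 30.7 and 1179 in the tumours, the stem cell receptor gene Lgr5 at 82.2, 81.7 and 115 in the livers and 22.6, 81.7 and 492 in the tumours, and the glutamate transporter gene Slc1a2 at 5078, 5123 and 3352 in the livers and 283, 95.5 and 20124 in the tumours. Of the 22 listed genes tumour 3 was the highest tumour for 21 (36.8% of all genes) and above all livers for 18 (36.9%). Tumour 1 was below all livers for 21 (37.6% of all genes) and tumour 2 for 16 (34.9%). The list's median against the mean of the livers was -2.27 in tumour 1, -1.29 in tumour 2 and 1.84 in tumour 3.

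The group comparison of these genes depended on which tumours it held. With all libraries 1 gene, Cyp2c29, was called and the median was -0.51. Without tumour 3, 9 were lower and 0 higher (median -1.68), and without tumour 1, 1 was lower and 3 higher (median 0.39). Cyp2e1, a P450 of the same zone that activates DEN, stood at 162351, 124179 and 95904 in the livers and 7711, 15099 and 76033 in the tumours, and was not called (log2 fold change -2.59, SE 0.81, limma adjusted p = 0.0671). In the periportal list tumour 3 was the lowest tumour for 13 of 21 (32.2% of all genes) and below all livers for 19 (34.4%). Tumour 1 was below all livers for 16 of them and tumour 2 for 10. The list's median against the mean of the livers was -1.44 in tumour 1, -0.54 in tumour 2 and -1.91 in tumour 3, so tumour 2 lay nearest the livers. Rspo3 and Wnt2, the endothelial signals that sustain the pericentral programme, were lower in all tumours, at 103, 122 and 99.7 in the livers and 29.6, 37.2 and 5.22 in the tumours for Rspo3 and 70.7, 81.7 and 59.8 in the livers and 11.3, 21.8 and 6.09 in the tumours for Wnt2. Tumour 3, with the highest target genes, had the lowest values of both. The summed level of the 21 endothelial genes, which include this pair, was 14862, 19412 and 14734 in the livers and 13196, 13475 and 6177 in the tumours. It too was lowest in tumour 3, and its part in the values of Rspo3 and Wnt2 was not tested.

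**Figure D5:**
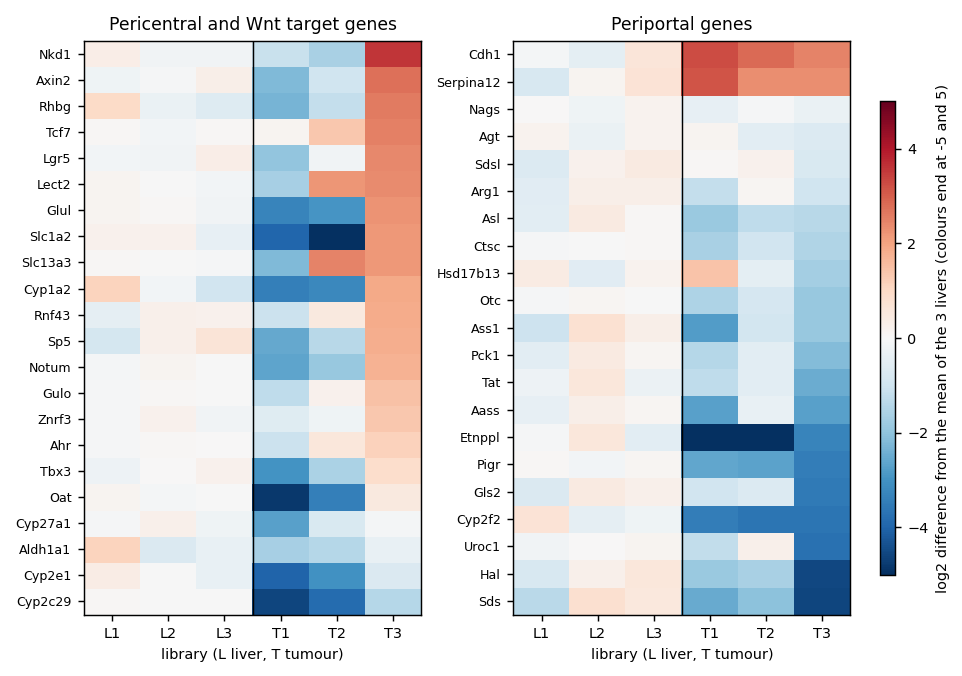
Log2 difference of each library from the mean of the 3 livers (colour, blue below and red above) for the 22 pericentral and Wnt target genes (left) and the 21 periportal genes (right), with libraries as columns. Tumour 3 is red for most pericentral genes where tumours 1 and 2 are blue, and all tumours are blue for most periportal genes.

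Tumour 3 stood apart in other genes as well. It held 81 genes (0.579%) at least 8-fold above both other tumours at a level of at least 50, against 16 (0.114%) for tumour 1, 19 (0.136%) for tumour 2, and 13 (0.0930%), 1 (0.00715%) and 2 (0.0143%) for livers 1, 2 and 3. Among the 81 were 9 of the 22 pericentral genes, 6 of the 28 female-biased genes and 5 of the 33 cytochrome P450 genes. The next 2 genes are named after their values were seen. Cyp2c69, a P450 of female liver, had the widest gap, at 224, 3683 and 2117 in the livers and 3.48, 25.9 and 6077 in the tumours. Sfrp2, a secreted modulator of Wnt signals, stood at 4.16, 1.12 and 1.36 in the livers and 11.3, 0 and 980.4 in the tumours, and was thus near background in all libraries but tumour 3. Targets of NRF2, the regulator of antioxidant defence, had a median of 2.02 against the mean of the livers in tumour 3. It was 0.92 in tumour 2 and -0.22 in tumour 1. Tumour 3 was the highest tumour for 17 of 21 (36.8% of all genes). Nqo1, a quinone reductase and standard reporter of NRF2, stood at 173, 223 and 204 in the livers and 186, 742 and 1906 in the tumours. Tumour 1 lay among the livers, and the gene was not called (limma adjusted p = 0.127). As a group 3 of the 21 were higher and 0 lower (5.99% and 4.58% of all genes). The 3 were Srxn1, Osgin1 (3.77-fold) and Slc7a11, which is also in the ATF4 list. Srxn1 stood at 1054, 1075 and 1324 in the livers and 2239, 6147 and 6025 in the tumours. Srxn1 kept the call with each of the 11 libraries left out (limma adjusted p at most 0.0373). Osgin1 lost its call without livers 2 and 3 and tumour 1 (limma adjusted p up to 0.102), Rspo3 without livers 1, 2 and 3 (up to 0.0733) and Wnt2 without livers 1, 2 and 3 and tumour 1 (up to 0.0798).

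Markers of Kupffer cells, the resident macrophages of the liver, were called in the lower direction alone. Of 14 tested 5 were lower and 0 higher (4.58% and 5.99% of all genes), and all 14 had a negative log2 fold change (median -1.25). The lower count was 3 without livers 2 or 3, and 4 to 7 with any other library left out. Clec4f, a lectin found on Kupffer cells alone among liver cells, stood at 2678, 2709 and 4148 in the livers and 451, 654 and 240.1 in the tumours. Cd163, the scavenger receptor for haemoglobin, stood at 616, 365 and 658 in the livers and 104, 20.2 and 7.83 in the tumours, lowest in tumour 3. Timd4, a marker of long-lived Kupffer cells, stood at 393, 212 and 209 in the livers and 52.2, 44.5 and 1.74 in the tumours. Folr2 and the iron exporter gene Slc40a1, which hepatocytes express too, were 5.21-fold and 2.37-fold lower. Monocyte and lipid-associated macrophage markers held 1 called higher of 18, Spp1, at 1413, 1419 and 1104 in the livers and 9699.7, 6242 and 1917 in the tumours, which bile duct cells and tumour cells can express as well. The summed level of the Kupffer list was 31217, 22569.8 and 26722 in the livers and 9966, 17689.9 and 7673 in the tumours, and none of its 15 genes was at 0 in all 6 libraries. Clec4f, Cd163 and Slc40a1 kept their calls with each of the 11 libraries left out (limma adjusted p at most 0.0480). Among other fits, Slc40a1 lost the call without liver 3 and tumour 3 together (adjusted p = 0.0548). Timd4 lost its call without livers 1, 2 and 3 (limma adjusted p up to 0.103), Folr2 without livers 2 and 3 and tumour 1 (up to 0.0639) and Spp1 without livers 1, 2 and 3, tumours 1 and 2 and cornstarch livers 1, 2 and 3 (up to 0.117).

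Vessel and matrix genes were called in both directions, where 5.99% of all genes were higher and 4.58% lower. Of 21 endothelial genes Cd34 (2.72-fold), a marker of capillaries, was higher, and Vwf (2.95-fold), Rspo3 and Wnt2 were lower, at a median of -0.68. Cd34 stood at 69.7, 75.0 and 48.9 in the livers and 153, 164 and 211 in the tumours. Of 26 stellate cell and matrix genes 4 were higher and 1 lower, and the higher count was 2 without livers 1, 2 or 3 or tumour 3, and 3 to 4 with any other library left out. The higher genes included the basement membrane genes Col4a1, Col4a2 and Lama2, by 1.91-fold, 2.49-fold and 2.63-fold, and Reln, at 672, 947 and 945 in the livers and 1743, 7431 and 7000.4 in the tumours. Dcn, the collagen-binding proteoglycan of the normal matrix, was 2.80-fold lower. Col1a1, the main fibrous collagen, overlapped between tissues, at 861, 256 and 247 in the livers and 416, 366 and 795 in the tumours. Vwf and Col4a2 kept their calls with each of the 11 libraries left out (limma adjusted p at most 0.0477). Among other fits, Col4a2 lost the call without liver 3 and tumour 3 together (adjusted p = 0.0519). Cd34 lost its call without liver 3 (limma adjusted p 0.0523), Col4a1 without liver 2 (0.0570) and Lama2 without livers 1 and 3 and tumour 3 (up to 0.0883). Reln lost its call without livers 1, 2 and 3 and tumours 2 and 3 (limma adjusted p up to 0.0763) and Dcn without livers 1, 2 and 3 (up to 0.0911).

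Acute phase genes were called in both directions and complement genes in 1, where 10.6% of all genes were called. Of 27 acute phase genes Cd14 (4.12-fold) and Il1rn (4.04-fold) were higher and Saa4 (2.85-fold), Orm3 (10.9-fold), Crp (2.28-fold) and Lbp (2.97-fold) lower, and of 25 complement genes 5 were lower (C6, C7, C8b, Cfp and Mbl1) and 0 higher. The complement count was 1 without livers 1 or 3 or tumour 1 and 2 without liver 2, and 4 with any other library left out. Cd14, the co-receptor for endotoxin, stood at 129, 123 and 134 in the livers and 501, 766 and 395 in the tumours, and was also the 1 gene called of 23 in the TNF and NF-kB list. Limma called none of 28 interferon-induced genes (3 at an unadjusted p under 0.05, 0 called by edgeR and 2 by DESeq2), and none of 11 neutrophil (2, 0 and 0), 15 T and NK cell (1, 0 and 0), 11 B and plasma cell (3, 0 and 1) and 6 adipocyte markers (3, 0 and 2), or 19 clock genes (3, 0 and 1). Cholangiocyte markers held 2 called higher of 13 (Tspan8 and Spp1), and red cell markers 1 called lower of 10 (Car1, 5.35-fold). Of 20 iron genes Hamp2 and Slc40a1 were lower, while Hamp, the hepcidin gene itself, stood at 5898, 2753 and 922 in the livers and 5958, 62.3 and 37.4 in the tumours, with tumour 1 at the level of the highest liver. Of 18 hepatocyte identity factors only Nr1h4 was called, and Hnf4a and Cebpa were not (-0.15 and -0.57). Cd14 and C8b kept their calls with each of the 11 libraries left out (limma adjusted p at most 0.0346). Il1rn lost its call without liver 2 (limma adjusted p 0.0521), Saa4 without livers 1 and 3 and tumours 1 and 3 (up to 0.0892) and Orm3 without liver 2 (0.0586). Crp lost its call without livers 1, 2 and 3, tumours 1 and 3, cornstarch livers 1, 2 and 3 and cornstarch tumours 1 and 2 (limma adjusted p up to 0.142), Lbp without livers 1, 2 and 3 and tumours 1 and 2 (up to 0.111) and C6 without livers 1, 2 and 3 and tumours 1 and 2 (up to 0.0994). C7 lost its call without livers 1, 2 and 3, tumours 1, 2 and 3 and cornstarch liver 3 (limma adjusted p up to 0.148), Cfp without livers 1, 2 and 3, tumours 1 and 3, cornstarch livers 1 and 2 and cornstarch tumours 1 and 2 (up to 0.130) and Mbl1 without livers 1 and 3 and tumours 1 and 2 (up to 0.0990). Car1 lost its call without livers 1, 2 and 3 and tumour 2 (limma adjusted p up to 0.0884).

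The same comparison on cornstarch asks whether the difference between tumour and liver depends on the diet. There, 825 genes (5.90%) were called: 692 (4.95%) were higher and 133 (0.951%) lower by limma. With 2 tumours against 3 livers, these counts cannot be set directly against those under fructose. Without cornstarch tumour 2, 74 genes were called. The difference between the diets was tested itself: no gene passed (0 of 13984 by limma, 0 by edgeR and 1 by DESeq2), and 405 genes (2.90%) had an unadjusted p under 0.05. Gpc3 stood at 450.3, 43.0 and 183 in the cornstarch livers and at 2541 and 9940.4 in the cornstarch tumours. Igfbp1 stood at 2637, 330.4 and 1633 and 20113 and 32611, and both genes were called there too (log2 fold changes 5.03 and 4.51). Mup3 stood at 119599, 146844 and 78366 in the livers and 38641 and 15305 in the tumours, a log2 fold change of -2.19 (limma adjusted p = 0.0230) against -4.14 under fructose, and the difference between diets was not called (difference -1.95, SE 0.61). Against a median of 0.00 over all genes, the list medians under cornstarch were 2.95 for the tumour markers, 1.24 for cholesterol synthesis, 1.24 for ATF4, 1.13 for p53 targets, -1.76 for male-biased genes, -1.04 for cytochrome P450 and -0.47 for Kupffer markers. These kept the sign they had under fructose, while 12 of the 44 lists had the opposite sign. Among those, the median was 0.36 under cornstarch against -0.88 under fructose for female-biased genes, 0.14 against -0.68 for endothelial markers and 0.23 against -0.31 for acute phase genes. The stellate and matrix median was 0.98 against 0.01, and 9 of its 26 genes had an unadjusted p under 0.05 for the difference between diets (2.90% of all genes). Its summed level was 6612 to 8900 in the cornstarch livers against 13050 to 14061 in the fructose livers. In the tumours it was 15586 and 16568 against 14859 to 21013. For the Kupffer list the livers stood at 6013 to 14315 against 22570 to 31217, and the tumours at 6612 and 7582 against 7673 to 17690.

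The 5 genes with the smallest p in the test of the difference were Gm42892, P2rx7, Irx1, Slc3a1 and 2510016D11Rik, all at a limma adjusted p of 0.999989. Slc3a1, a subunit of the cystine transporter of the kidney, stood at 810.5, 732 and 1915 in the livers and 120.0, 75.2 and 20.9 in the tumours under fructose. Under cornstarch it stood at 1244, 713 and 524 in the livers and 401 and 1486 in the tumours (difference of the log2 fold changes -4.15, SE 1.02). P2rx7, an ATP-gated channel of immune cells, stood at 154, 175 and 154 in the livers and 209.5, 201 and 62.6 in the tumours under fructose, against 80.0, 76.8 and 66.7 and 299.5 and 517 under cornstarch (difference -2.60, SE 0.61). Irx1, a homeobox gene, stood at 20.8, 30.2 and 24.5 in the livers and 0.870, 0.809 and 0.870 in the tumours under fructose and at 43.4, 55.3 and 48.8 and 24.4 and 10.9 under cornstarch. With 2 cornstarch tumours a difference in either direction may have gone undetected.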

How the data were processed

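Poly(A) RNA of 16 samples of mouse liver and liver tumour was made into libraries with TruSeq mRNA reagents, according to the labels' protocols. The authors deposited signal values, 1 table of normalised counts for 47069 genes, each library divided by 1 factor. FastQC, Trim Galore, STAR, RSEM, DESeq2 and GRCm38 are named in the submitters' processing notes, without versions, and strandedness is not given in the sources used here. Whole reads were recovered for 100% of values (within 0.01), and 46574 gene IDs (98.9%) were matched to GENCODE M21 for coordinates.

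Log2(value + 1) was fitted with limma 3.58.1 (R 4.3.3, trend) over the 11 libraries of 9 months, with 1 mean per group. Genes at 10 or more in at least 2 of the 6 fructose libraries were tested, with Benjamini-Hochberg adjustment and a threshold of 0.05. The count tests edgeR 4.0.16 (quasi-likelihood, 1517 genes called) and DESeq2 1.42.0 (Wald, 2434) were run on the recovered reads. The pipeline was tested on simulated data. No fructose library duplicated another: between those of 1 tissue the chi-square per degree of freedom was 65.1 to 206.

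Genes were named from the 12 leading genes in each direction (called, mean of at least 50 in the higher tissue, tissues not overlapping, predicted genes and pseudogenes left out), the 4 members of lowest p in each of 44 lists, the 5 of lowest p in the test between diets, and a fixed set. Further members were named after their values were seen, to complete counts, and a few genes that enter the counts are not reported here by name. The members and lists were chosen with earlier results of these data known. Alternatives were other pseudocounts, filters, scalings, moderations and sets of libraries, both count tests, and each library left out; leaving out liver 3 and tumour 3 together, and all alternatives for cornstarch, were added after the data were seen.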

Additional observations from a re-analysis of the deposited data

How the results depend on the processing

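No paired analysis was possible because the labels carry no replicate numbers. Of 24 alternatives for the fructose comparison, 18 gave a count of called genes within 1.5 times of 1479. The others were the fit of all 16 libraries (2239), DESeq2 (2434), liver 3 and tumour 3 left out together (818), and the fits without 1 liver, with 568 to 1567 genes over all fits that left out 1 library. Of the 568 genes called without liver 2, 562 were among the 1479. Under cornstarch the counts were 1435 with all 16 libraries, 1692 by DESeq2 and 74 to 1061 without 1 library, the lowest without cornstarch tumour 2. The test of the difference between diets gave 0 genes in every fit without 1 library, and 1 by DESeq2, Gm42892.

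Of the 169 called genes named in the text, 79 missed the threshold without liver 3 and tumour 3 together (limma adjusted p up to 0.272), an alternative chosen after seeing the data, and 47 with the 6 fructose libraries alone (up to 0.110), which leave fewer libraries for the spread. With no filter on low values 12 missed it (Aass, C7, Ces2c, Cfp, Crp, Fads2, Fdft1, G6pc, Klf2, Mup17, Sdhb and Stc1, up to 0.0640). By edgeR 7 did (Aass, C6, Cfp, Crp, G6pc, Plin4 and Sdhb, up to 0.110), and with all 16 libraries 7 (Asns, C6, Ces2c, Cidea, Hsd3b5, Mup7 and Nudt7, up to 0.147). With robust moderation 6 did (Aass, Ces2c, G6pc, Mup17, Sdhb and Stc1, up to 0.0619), with array weights 5 (Aass, Cfp, Mup17, Ndufb3 and Sdhb, up to 0.0610), 4 with a pseudocount of 0.5 (Ces2c, Fndc10, Mup17 and Stc1, up to 0.0597) and 1 with a filter of 50 (C7, 0.0579). Of 35 lists with a limma call, 18 had a count over 1.5 times apart by DESeq2, among them the respiratory chain (13 against 4), cholesterol synthesis (16 against 8), cytochrome P450 (17 against 9), NRF2 (9 against 3), DNA replication (12 against 6), immediate early (14 against 8), growth factor (9 against 5) and acute phase lists (10 against 6).

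Genes that were not called changed sign in some fits, and the cause was not tested. By edgeR, Cyp2c69 was at 0.000338, Axin2 at 1.27, Glul at 0.70, Notum at 0.31 and Slc1a2 at 0.58, and by DESeq2 Cyp2c69 was at 0.0162 and Axin2 at 1.29. The main fit compared means of log2 values. On the count scale the tumour mean exceeded the liver mean for Glul (40361 against 24491), Axin2 (490 against 199) and Notum (499 against 397). It also did for Slc1a2 (6834 against 4518) and, narrowly, Cyp2c69 (2036 against 2008). Tumour 3 was at least 8-fold above both other tumours for each of these genes. Over the fits without 1 library, Axin2 ranged from -1.61 to 0.87, Chac1 from -1.14 to 0.0671, H19 from -2.36 to 0.11, Lgr5 from -1.07 to 1.12, Mup20 from -1.33 to 0.25, Nkd1 from -1.37 to 1.23. In the same fits, P2rx7 ranged from -0.51 to 0.35, Scd1 from -2.62 to 0.54, Srebf1 from -0.0362 to 0.88, Tff3 from -0.60 to 0.72. With liver 3 and tumour 3 left out together, Col1a1 was at -0.27, Hnf4a at 0.00357, Lgr5 at -0.91, Mup20 at 0.14, Nkd1 at -1.45, P2rx7 at 0.32 and Tff3 at 0.89. With quantile normalisation Hnf4a was at 0.0933, and with array weights Lgr5 was at -0.0307 and Nkd1 at -0.21, all on the log2 scale.

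With 2 or 3 libraries a group, the smallest two-sided p of an exact permutation test of 3 against 3 is 0.1, so each call rests on the spread shared across genes and groups. Libraries of 14738874 reads or more limit genes near the filter of 10.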

Other observations

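For the genes with a mean of at least 50 over the 6 fructose libraries, the median log2 difference of each tumour from the mean of the livers was taken per chromosome. The lowest median was -0.11, on chromosome 13 in tumour 1 (390 genes), and the highest 0.19, on chromosome 15 in tumour 3 (439 genes). The medians of chromosome 15 in tumours 1 and 2 were 0.06 and 0.09. All other medians over the autosomes and the X chromosome lay between the lowest and the highest.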
